A study of Oryza sativa with 4 samples.

Results

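The polysomal splice variants of rice described here were assembled transcripts that share at least 1 splice junction with an annotated transcript and differ from it elsewhere, which the transcript comparison marks as class j. They were selected on their measured level: 5 FPKM or more (fragments per kilobase of transcript, scaled to the number of mapped reads) in at least 1 of the 4 polysomal libraries. By this rule 6131 transcripts were members, which is 30.5% of the 20099 class j transcripts and 6.83% of all 89715 assembled transcripts. The members belonged to 4727 annotated genes, and 9 members carried no gene name. Annotated transcripts of the same gene (class =) were in the table for 4918 members. For 541 of these members the annotated sum was 0 in all libraries. Between 2321 and 2624 variants per comparison met the limits for setting their change against an annotated form.

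The seedlings were of the salt-sensitive genotype IR29 and the salt-tolerant genotype Pok (Pokkali), both grown on liquid medium to an age of about 24 days. Of each genotype, control seedlings received 0 mM NaCl and salt-treated seedlings received 150 mM NaCl for 24 h. Messenger RNA was taken from the polysome fractions of whole seedlings, which hold mRNA bound by several ribosomes, and each of the 4 conditions was sequenced as 1 library from pooled plants. With 1 library per condition there is no spread between replicates, no test was made, and a treatment or a genotype cannot be told apart from its library. A library from whole seedlings also does not tell fewer cells of a type from less RNA per cell.

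Alternative splicing joins the exons of a primary transcript in more than 1 way, by using other donor or acceptor sites, by skipping exons or by keeping introns, and intron retention is the most common form in plants. A variant can encode another protein, or carry another untranslated region, or hold a premature stop codon that exposes it to nonsense-mediated decay, a process that depends on ribosomes reading the message. Salt and other abiotic stresses are known to shift splice site choice in plants. The deposited values place each transcript by its assembled locus and not by its exons, so it is not known here which exon or intron of a variant differs, or whether its reading frame does.

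The IR29 control library stood apart. Its summed FPKM over all assembled transcripts was 917853, against 1640970 to 1910420 in the other 3, and the members held 13.8% of that sum there, 6.01% in the IR29 salt library, 6.59% in Pok control and 7.14% in Pok salt. Both comparisons that use IR29 control have to be read with this difference, and the comparisons of Pok salt with Pok control and of Pok salt with IR29 salt do not use it. Leaf and root messages also moved between libraries: 4 shoot markers, 3 of them Rubisco small subunit genes, summed to 7812, 1837, 5750 and 3965 FPKM in IR29 control, IR29 salt, Pok control and Pok salt, and 5 root markers, with the silicon transporters Lsi1 and Lsi2 among them, to 295, 58.6, 119 and 272 FPKM. Each of these 9 markers reached 5 FPKM in every library, so leaf and root RNA were present in all 4. The part of the tissue mix in the results below was not tested.

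The members were moderately abundant. Their median level was 5.98 FPKM in the IR29 control library, 7.89 in IR29 salt, 7.71 in the Pok control library and 7.65 in Pok salt, against 7.73, 9.88, 9.40 and 10.8 FPKM for the 12578 annotated transcripts that pass the same minimum. At 5 FPKM or more there were 3640, 4621, 4474 and 4456 members in the same order of libraries. The minimum was reached in every library by 2697 members (44.0%), while 1412 (23.0%) reached it in a single library, most often IR29 salt (494) and least often IR29 control (172). The limit itself separated nearly equal values, since the lowest member peaked at 5.0003 FPKM and the highest transcript left out at 4.99987, with 1088 class j transcripts peaking between 4 and 5 FPKM. A listed value of 0 in at least 1 library was found for 457 members (7.45%), against 4.34% of the annotated transcripts.

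The most abundant variant by far was TCONS_00000729 of Os01g10400, annotated only as an expressed protein, with 28739, 11187, 5412 and 3842 FPKM in IR29 control, IR29 salt, Pok control and Pok salt. Its annotated transcript had 517, 560, 399 and 77.4 FPKM, and the variant held 88.4% to 92.6% of the gene. It was highest in IR29 control, the library in which the members held the largest part of the summed FPKM. The other variants described for their level were taken from those with a specific annotation. The variant of Os12g19381 (TCONS_00084640), which encodes the small subunit of Rubisco, the carbon-fixing enzyme, stood at 2241, 469, 1096 and 893 FPKM in the same order. The annotated transcript of this gene had no more than 2.56 FPKM in any library. All transcripts under this gene name, other classes included, summed to 4545, 1172, 2740 and 2075 FPKM, so the variant was a large part of the gene but not all of it. Reads of the near-identical Rubisco small subunit copies of rice can be split among them, and the level of a single copy is uncertain for that reason. The glutaredoxin variant of Os04g42930 (OsGrx_C2.2, TCONS_00033096) had 578, 1047, 482 and 914 FPKM, which was higher in the salt library of each genotype, with 86.9% to 91.1% of the gene in all 4 libraries. A variant of Os05g43360 (TCONS_00041605), a flavoprotein subunit of the mitochondrial NADH dehydrogenase, had 489, 735, 1396 and 574 FPKM and 87.2% to 95.6% of its gene. In both genes the annotated transcript was the minor form throughout.

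Ribosomal protein variants were also found at this level. For 60S protein L39 (Os06g08320, TCONS_00050088) the variant had 699, 1029, 1500 and 1365 FPKM while the annotated transcript had 1159, 522, 521 and 517 FPKM. The variant thus held 37.6% of the gene in IR29 control and 66.3% to 74.2% in the other 3 libraries. The variant of Os09g26420 (TCONS_00068313), annotated as an AP2 domain transcription factor, had the highest mean among variants with a specific annotation, with 609, 2329, 2944 and 6158 FPKM, and its gene had no annotated transcript in the table to compare with. A variant of Os05g02780 (TCONS_00042496), glycine-rich protein A3, was listed at 0 in both IR29 libraries and at 1795 and 2753 FPKM in Pok control and Pok salt. Its annotated transcripts were listed at 0 in both IR29 libraries as well, and at 75.5 and 107 FPKM in Pok, so the whole gene and not the variant alone was listed at 0 in IR29.

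The share of a variant is its FPKM divided by the summed FPKM of all annotated and class j transcripts of its gene, taken where that sum was 5 FPKM or more. The median share was 37.8% in IR29 control (n = 4548 variants), 39.1% in IR29 salt (n = 4727), 38.7% in Pok control (n = 4598) and 36.9% in Pok salt (n = 4704). The shares were spread widely, with quartiles of 22.3% and 56.2% in IR29 control. Annotated transcripts of genes with 2 or more transcripts, genes without a member included, had medians of 67.0% to 69.2%. In the genes of the members, all class j transcripts together held medians of 56.6%, 56.8%, 57.8% and 54.8% in the same order of libraries. The variant was the larger part of its gene, at 50% or more, for 33.0%, 33.5%, 33.5% and 30.9% of the variants, and it held 90% or more for 5.21% to 6.39%. Since a variant had to reach 5 FPKM to be a member, the share was bound to be high where the gene was low: the median was 64.2% in 338 variants of genes with a mean under 10 FPKM, 38.1% from 10 to 30 FPKM, 30.5% from 30 to 100 FPKM and 35.0% above that.

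**Figure D1:**
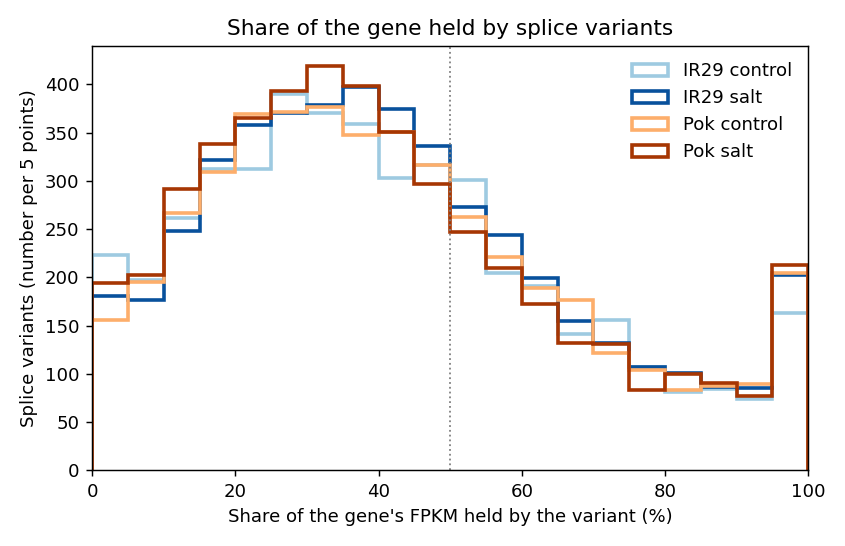
The x axis gives the share of the gene's FPKM held by each splice variant in percent and the y axis the number of variants per 5 points, with a line for each of the 4 libraries (n = 4548, 4727, 4598 and 4704). The 4 distributions lie close together, peak below the dotted line at 50% and have a second, smaller peak near 100%.

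The share of most variants varied between libraries to some degree. Over the 4309 variants whose gene reached 5 FPKM in all 4 libraries, the median range between the lowest and the highest share was 15.1 percentage points, 1193 (27.7%) varied by less than 10 points and 124 (2.88%) by 50 points or more. The range was wider in low genes, with a median of 21.1 points below 10 FPKM and 11.9 points at 100 FPKM or more. A share of 50% or more in all 4 libraries was found for 802 variants (18.6%), of 90% or more for 130 (3.02%), and of under 10% for 58 (1.35%). The share crossed 50% between libraries in 1098 (25.5%). Examples with an even share were the stress responsive protein Os01g01450 (TCONS_00000066), with 49.7% to 52.9%, and the cytosolic ascorbate peroxidase gene Os07g49400 (OsAPx2, TCONS_00060173), an enzyme that removes hydrogen peroxide, with 77.0% to 80.2% while its own level went from 92.7 and 145 FPKM in the IR29 and Pok controls to 148 and 175 FPKM in salt.

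The genes that carried variants differed in kind. Of the 14001 genes with an annotated or class j transcript at 5 FPKM or more, 4727 (33.8%) had at least 1 member, and 3626 of these had 1 member, 872 had 2, 172 had 3 and 57 had 4 or more. Gene lists were made from words in the annotation. A member was found in 48 of 103 genes (46.6%) for initiation and elongation factors, a list that took those of transcription together with those of translation. For splicing and RNA-binding proteins it was 96 of 212 genes (45.3%). The lowest coverage was in wound-induced proteins, protease inhibitors and thionins, at 18 of 113 genes (15.9%), and in cell wall proteins, at 29 of 163 (17.8%). Genes of dehydrins, late embryogenesis abundant (LEA) proteins and abscisic acid response proteins, which accumulate in drying or salt-stressed tissue, had a member in 12 of 50 cases (24.0%). The number of exons per gene, which limits how many variants a gene can form, is not in the table.

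**Figure D2:**
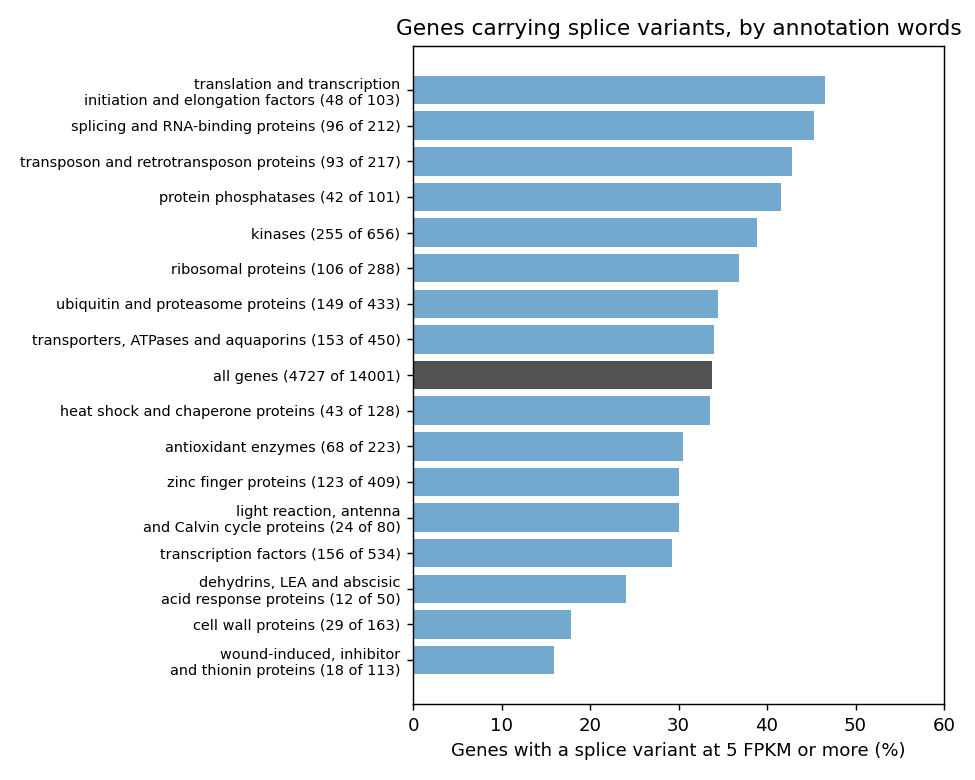
Bars starting at 0 give, for each gene list on the y axis, the percent of expressed genes with at least 1 splice variant at 5 FPKM or more, with the numbers of genes in brackets. The dark bar is the value over all 14001 genes (33.8%), and the lists range from 15.9% to 46.6%.

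The first question was how salt changed the level of the variants on polysomes. A variant was called higher or lower where it had 5 FPKM or more in at least 1 library of the pair and its FPKM ratio was 2 or more. After salt in IR29, 1258 of 5129 variants were higher (24.5%) and 476 lower (9.28%), where over all assembled transcripts 22.9% were higher and 7.7% lower. In Pok, 769 of 5342 were higher (14.4%) and 625 lower (11.7%), against 16.8% and 8.12% over all transcripts. The excess of higher calls in IR29 was partly a shift of the whole library: the median annotated transcript had a log2 ratio of 0.26 in IR29 and 0.06 in Pok. Centred on that median, higher calls made up 58.5% of the called variants in IR29 in place of 72.5%, and 50.8% in Pok in place of 55.2%. Many members also passed the minimum only through the higher library, and of the 2697 at 5 FPKM or more everywhere 315 were higher and 171 lower in IR29, and 154 and 132 in Pok.

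The second question was whether a variant followed the annotated form of its gene. The relative change is the log2 ratio of the variant minus that of the summed annotated transcripts, each computed from FPKM plus 1. Shifts of a whole library cancel in it only approximately, because of the added 1, and least at low values. It was called at a size of 1 or more (2-fold), where variant and annotated sum both had 5 FPKM or more in the pair and neither was listed at 0. After salt in IR29, 297 of 2464 variants were relatively higher (12.1%) and 329 relatively lower (13.4%), so that 74.6% stayed within 2-fold of the annotated form. As background, of 998 annotated isoforms set against the other annotated isoforms of their gene, 17.2% were relatively higher and 16.1% lower. In Pok 244 of 2613 variants were relatively higher (9.34%) and 367 lower (14.0%), with a background of 17.9% and 17.5%, and 76.6% stayed within 2-fold. Under these limits relative calls were less frequent among the members than in the background, which was not tested, and this did not hold in both directions where low values were left out. The background comes from another and smaller set of genes, those with several annotated isoforms. Both directions of the background are nearly equal by construction, because isoforms of a gene are compared with each other.

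Across variants, the log2 ratios of variant and annotated form had a Pearson r of 0.44 over the 2464 variants in IR29 and 0.35 over the 2613 in Pok. This is a description across variants that share libraries and, in part, reads. A variant 2-fold higher beside annotated transcripts 2-fold lower was found in 17 cases in IR29 and 22 in Pok, and the reverse in 21 and 35, whereas both were 2-fold higher in 264 and 137 cases and both 2-fold lower in 46 and 15. The gene sum changed by less than 2-fold for 75.4% of the relatively higher and 77.2% of the relatively lower variants in IR29, and for 86.5% and 93.2% in Pok. The same percentage over all variants considered was not computed, so these values do not set relative calls apart from the rest. In the 1095 variants where both forms had at least 5 FPKM in every library, 78 were relatively higher (7.12%) and 104 lower (9.50%) in IR29, and 52 (4.75%) and 86 (7.85%) in Pok. Of 343 annotated isoforms under the same limit, 8.16% were relatively higher and 8.75% lower in IR29, and 7.87% and 9.33% in Pok, so the members lay near the background for lower calls, slightly above it in IR29 and below it in Pok.

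**Figure D3:**
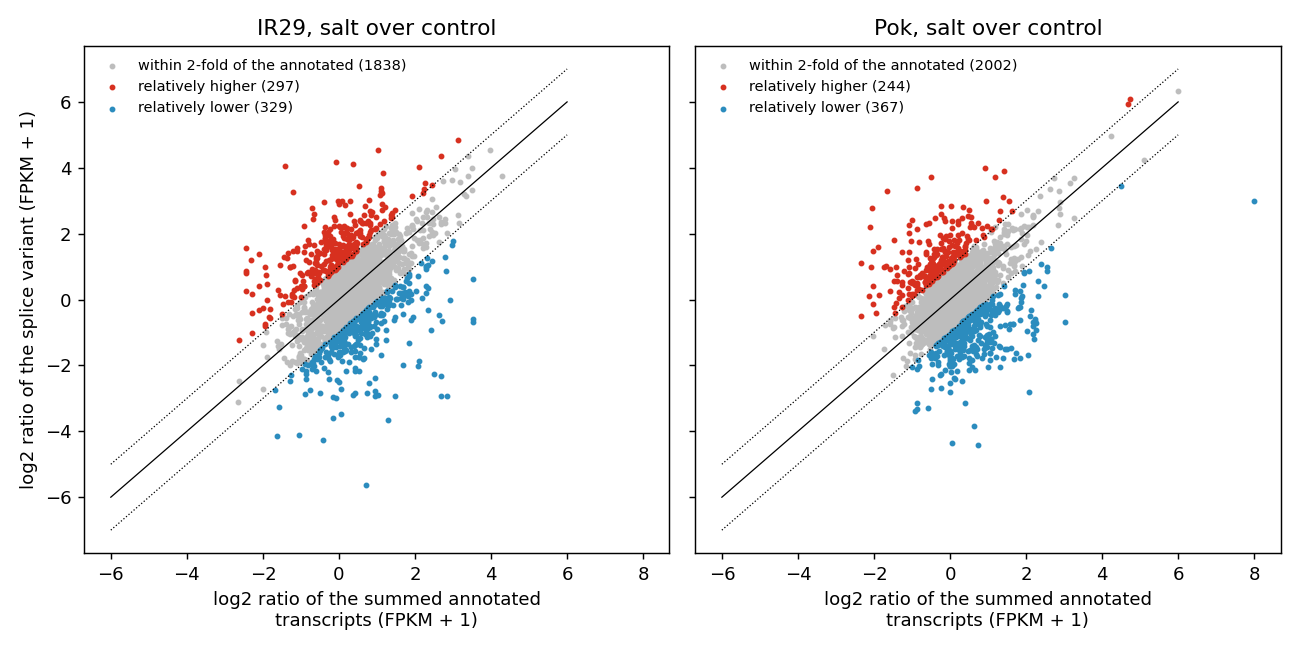
Each point is a splice variant, with the log2 ratio (salt over control, FPKM + 1) of the summed annotated transcripts of its gene on the x axis and its own log2 ratio on the y axis, for IR29 (left, n = 2464) and Pok (right, n = 2613). The solid line marks equal ratios and the dotted lines a 2-fold difference: 297 and 244 points lie above the band and 329 and 367 below it.

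Light reaction, antenna and Calvin cycle variants were often lower after salt in IR29. There 4 of 32 were higher (12.5%) and 19 lower (59.4%), against 24.5% and 9.28% over all 5129 variants. Their median log2 ratio was -1.24 against 0.37. In Pok 4 of 37 were higher (10.8%) and 6 lower (16.2%), against 14.4% and 11.7% over all variants. The median there was -0.15 against -0.05. The variant of Os01g56680 (TCONS_00009335), the photosystem II reaction center W protein, had 724, 278, 445 and 384 FPKM in IR29 control, IR29 salt, Pok control and Pok salt. That of Os07g05480 (TCONS_00053872), a photosystem I reaction center subunit, had 564, 197, 559 and 409 FPKM. Both were lowest in IR29 salt. The summed shoot markers were also lowest there, but they are Rubisco and chlorophyll binding genes themselves and do not stand apart from this list. The summed root markers were lowest in IR29 salt as well. The part of the tissue mix in this was not tested. Relative to the annotated form, 3 of 18 variants of this list were higher and 5 lower in IR29, with a median of -0.38. Over all variants 12.1% were higher and 13.4% lower there, with a median of -0.04. In Pok 0 of 18 were higher and 5 lower, with a median of -0.12. The values over all variants in Pok were 9.34%, 14.0% and -0.14.

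Ribosomal protein variants were lower more often than higher in both genotypes. In IR29 15 of 134 were higher (11.2%) and 41 lower (30.6%), against 24.5% and 9.28% over all variants, and in Pok 13 of 144 were higher (9.03%) and 32 lower (22.2%), against 14.4% and 11.7%. The median log2 ratios were -0.59 and -0.54. Relative to the annotated forms they were balanced. In IR29 14 of 97 were higher and 13 lower, and in Pok 13 of 97 were higher and 9 lower. In either direction this was 27.8% and 22.7%, near the 25.4% and 23.4% over all variants. Transcription factor variants went the other way by level in IR29, with 60 of 158 higher (38.0%) and 8 lower (5.06%), and in Pok 40 of 179 were higher (22.3%) and 21 lower (11.7%). Their relative calls in either direction made up 17.8% of 73 in IR29 (8 higher and 5 lower) and 26.4% of 87 in Pok (12 and 11), against 25.4% and 23.4% over all variants. Kinase variants, a list that also took metabolic kinases such as adenylate kinase, had 79 of 271 higher (29.2%) and 19 lower (7.01%) in IR29 and 37 of 270 higher (13.7%) and 29 lower (10.7%) in Pok, near the percentages over all variants.

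Splicing and RNA-binding protein variants had a median log2 ratio of 0.31 in IR29 and -0.13 in Pok, against 0.37 and -0.05 over all variants. In IR29 19 of 105 were higher (18.1%) and 2 lower (1.90%), against 24.5% and 9.28% over all variants. In Pok 13 of 113 were higher (11.5%) and 10 lower (8.85%), against 14.4% and 11.7%. Relative to the annotated forms, 3 of 57 were higher and 4 lower in IR29 and 5 of 64 were higher and 6 lower in Pok, which is 12.3% and 17.2% of those considered in either direction, against 25.4% and 23.4% over all members. Ubiquitin and proteasome variants had 7 of 87 relatively higher and 7 lower in IR29 (16.1% in all), and 6 of 93 higher and 19 lower in Pok (26.9%), where the median relative change was -0.31 against -0.14 over all variants. Zinc finger variants had 3 of 65 relatively higher and 11 lower in IR29 (21.5% in all) and 2 of 68 and 7 in Pok (13.2%). Of the 14 variants of dehydrins, LEA and abscisic acid response proteins, 12 were considered by level in each genotype, with 3 higher and 1 lower in IR29 and 4 higher and 2 lower in Pok, too few to set against the percentages over all variants.

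A share that moved the same way in both genotypes was measured in separate pairs of libraries. The share was 20 points or more higher after salt in both genotypes for 37 of the 4309 variants (0.859%), against 0.968% of annotated transcripts of genes with 2 or more transcripts, and lower by as much in both for 28 (0.650%), against 0.778%. In single genotypes 271 variants gained 20 points in IR29 and 206 in Pok, and 241 and 271 lost them. The relative change was called in both genotypes in the same direction for 36 variants higher, which is 15.3% of the IR29 calls and 24.7% of the Pok calls among the 1998 variants considered in both, and for 44 lower (19.1% and 17.3%). In 56 variants the calls were opposite. Among the 778 annotated isoforms considered in both, 25 were relatively higher in both (21.7% and 21.4% of the calls), 26 lower in both and 33 opposite.

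**Figure D4:**
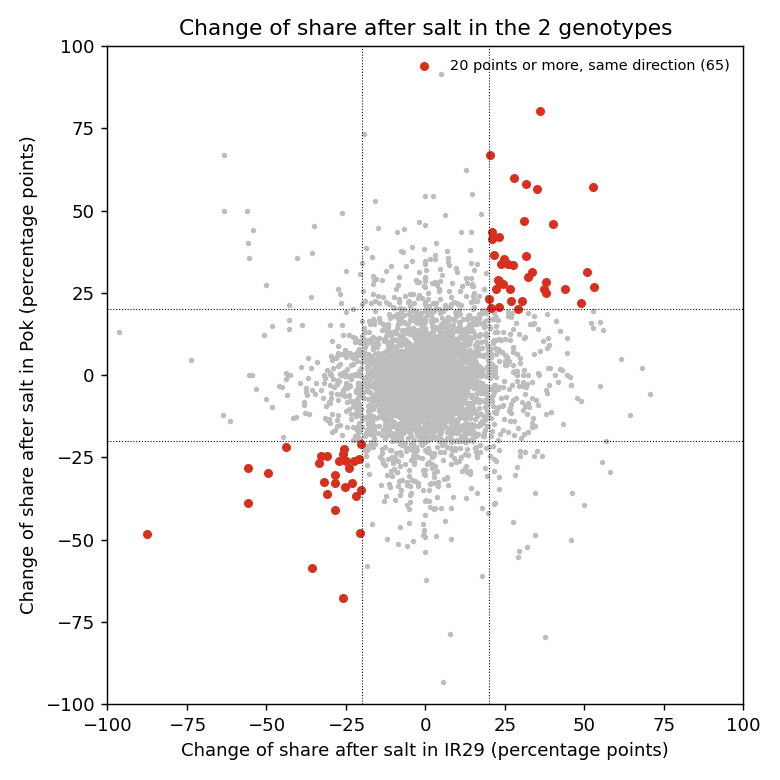
Each point is 1 of 4309 splice variants, with the change of its share of the gene after salt in IR29 on the x axis and in Pok on the y axis, both in percentage points, and dotted lines at 20 points up and down. The 65 coloured variants passed 20 points in the same direction in both genotypes (37 up and 28 down), and most of the others lie near 0.

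The leading variant with a share that moved the same way in both genotypes was that of Os03g48080 (TCONS_00028787; MSU v6.1, chromosome 3, assembled locus 27336296 to 27339824), which encodes a CHCH domain protein, a small cysteine-rich fold common among proteins of the mitochondrial intermembrane space. The variant had 2.67 FPKM in the IR29 control library, 59.5 after salt, 33.3 in the Pok control library and 234 after salt. The annotated transcript had 133, 49.0, 54.6 and 12.5 FPKM, so the 2 forms moved in opposite directions in each genotype and the main form changed. The share was 1.97% and 54.8% in IR29 control and salt and 37.9% and 94.9% in Pok control and salt. The relative change after salt was 5.46 on the log2 scale in IR29 and 4.82 in Pok, and between genotypes it was 4.49 in control and 3.85 in salt.

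Sulfiredoxin-1 (Os06g07760, TCONS_00046635), an enzyme that restores over-oxidised peroxiredoxins, had a variant at 1.71, 21.0, 0.726 and 26.5 FPKM in IR29 control, IR29 salt, Pok control and Pok salt, which is 12.3-fold higher after salt in IR29 and 36.5-fold in Pok. Its annotated transcript was also higher in salt, at 13.8, 24.4, 6.58 and 13.4 FPKM. The share of the variant was 11.0% and 9.94% in the controls and 46.2% and 66.4% in salt, and the variant was named for this rise. The variant of Os04g38530 (TCONS_00032724), an aldose 1-epimerase that interconverts sugar anomers, had 4.02, 12.4, 0.725 and 15.9 FPKM. The annotated transcript of the epimerase was lower in salt, at 7.63 and 5.14 FPKM in IR29 and 9.33 and 2.26 FPKM in Pok, and the share of the variant was 34.5% and 70.7% in IR29 and 7.21% and 87.6% in Pok. A variant of Os02g51430 (TCONS_00019631), which encodes SEC6, a subunit of the exocyst that tethers secretory vesicles, went from 2.66 to 7.89 FPKM in IR29 and from 3.34 to 9.21 FPKM in Pok, with shares of 34.0% and 28.0% in the controls and 65.8% and 86.1% in salt. The assembled loci of these genes were long, at 3535683 to 3832596 for Os06g07760, 22645619 to 22851883 for Os04g38530 and 31303791 to 31532910 for Os02g51430. The median length over the members was 13659 bases, and a long assembled locus can span several genes.

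The variants named for a share that was lower after salt in both genotypes were of low level. The variant of Os02g43750 (TCONS_00018972), a putative transcription initiation factor, had 3.75, 3.31, 5.14 and 1.23 FPKM in the same order, and the annotated transcript 2.72, 11.4, 2.00 and 8.06 FPKM. Its share was 58.0% and 72.0% in the controls and 22.5% and 13.3% in salt. In IR29 it was mostly the annotated form that differed, and in Pok both forms did, in opposite directions. The F-box gene Os02g57860 (OsFBX71, TCONS_00020161), of the substrate adaptors of ubiquitin ligases, had a variant at 6.74, 1.16, 6.65 and 2.78 FPKM, with the annotated transcript listed at 0 in all libraries, so the share was lost to other variants of the gene. A larger loss was that of a gene annotated as a transposon protein (Os07g32412, TCONS_00058950), with 8.68, 0.282, 5.94 and 0 FPKM for the variant and 1.02, 13.4, 6.39 and 12.3 FPKM for the annotated form.

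In IR29, the strongest relative increases after salt, beside Os03g48080, included the following. A variant of cysteine synthase (Os12g42980, TCONS_00089066), which makes cysteine from O-acetylserine and sulfide, had 5.54, 113, 72.2 and 130 FPKM against 52.5, 68.8, 108 and 82.2 FPKM for its annotated transcripts. IR29 control alone was low for this variant, at 2.97% of the gene, while the other 3 libraries had 26.3% to 39.1%. A variant of the ubiquitin-conjugating enzyme Os01g46926 (TCONS_00008547) had 0.464, 25.2, 21.2 and 10.7 FPKM, again with the low value in IR29 control, and its annotated transcript was steady at 96.7 to 117 FPKM. The glycosyl hydrolase family 3 variant of Os11g18730 (TCONS_00081495) was high in IR29 salt only, with 0.950, 17.6, 1.95 and 2.05 FPKM, and there held 73.8% of the gene against 4.54% to 6.75% elsewhere. For the peptidase T1 family gene Os02g53060, of the proteasome type of protease, the annotated sum was low in IR29 salt (23.4, 3.51, 19.2 and 36.7 FPKM) while its 2 variants had 8.93, 17.2, 12.8 and 3.43 FPKM (TCONS_00019757) and 7.59, 24.4, 9.64 and 0 FPKM (TCONS_00019761).

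Strong relative decreases after salt in IR29 included a metallothionein, a small cysteine-rich metal-binding protein. The variant of Os11g47809 (TCONS_00080256) had 55.4 and 0.149 FPKM in IR29 control and salt and 6.62 and 39.5 FPKM in Pok control and salt, whereas the annotated transcript was abundant throughout, at 188, 306, 56.3 and 140 FPKM. IR29 salt stood alone with 0.0487% of the gene, against 10.5% to 22.8% in the other libraries, and the relative change was -6.32 in IR29 and 1.11 in Pok. A variant of Os03g62780 (TCONS_00029923), an S1 domain RNA-binding protein, had 18.9, 1.61, 6.86 and 1.98 FPKM, with an annotated transcript at 0.501, 8.68, 13.4 and 14.6 FPKM. A variant of a glyceraldehyde-3-phosphate dehydrogenase gene (Os08g03290, TCONS_00060597), an enzyme of glycolysis, had 23.5, 0.944, 0.628 and 2.08 FPKM and never more than 9.45% of its gene. In the zinc finger gene Os04g55920 (TCONS_00034128) the variant had 57.3, 6.66, 13.5 and 3.94 FPKM and the annotated transcripts 26.6, 75.5, 49.0 and 75.1 FPKM. Variant and annotated forms of this gene moved in opposite directions after salt in both genotypes.

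In Pok, several variants had their lowest value in the salt library. A variant of mitochondrial serine hydroxymethyltransferase (Os03g52840, TCONS_00024537), which converts glycine to serine in photorespiration, had 56.5, 35.6, 74.9 and 2.56 FPKM in IR29 control, IR29 salt, Pok control and Pok salt. The annotated transcripts of the gene had 76.7, 52.2, 82.3 and 137 FPKM, and the share of the variant was 35.2% to 40.4% in 3 libraries and 1.70% in Pok salt. The variant of 60S ribosomal protein L18a (Os01g47660, TCONS_00008613) had 23.7, 18.7, 22.9 and 0.160 FPKM beside a steady annotated transcript (29.1 to 40.5 FPKM). A variant of Os09g02710 (TCONS_00069457), a CBS domain membrane protein, had 3.93, 30.2, 15.6 and 0.147 FPKM. In these 3 genes the variant was lowest in Pok salt while the annotated form was at its highest or close to it there. The metallothionein variant of Os12g38300 (TCONS_00085775) differed in kind: it had 887, 349, 62.2 and 497 FPKM, and its annotated transcript was high in Pok salt alone, at 6.27, 5.67, 0.690 and 429 FPKM, which brought the share of the variant from 98.9% in Pok control to 53.7%. Metallothioneins form a family of similar genes in rice, and how reads were divided among them is uncertain.

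The strongest relative increases after salt in Pok included others. The variant of ornithine carbamoyltransferase (Os02g47590, TCONS_00014825), of the arginine pathway, had 4.06, 10.6, 6.46 and 33.7 FPKM and the annotated transcript 23.6, 19.7, 27.5 and 5.60 FPKM. Its share was higher after salt in both genotypes, from 14.7% to 35.1% in IR29 and from 19.0% to 85.7% in Pok. For 60S ribosomal protein L19-3 (Os03g21940, TCONS_00027189) the variant had 44.9, 59.8, 10.9 and 124 FPKM, with a relative change of 4.27 in Pok and 0.80 in IR29. The CRS1/YhbY domain gene Os10g36860 (TCONS_00076616), of a family known in maize for splicing of chloroplast introns, had a variant at 5.88, 0, 1.12 and 5.45 FPKM. Its order over the libraries was opposite in the 2 genotypes, and all of its values lie close to the 5 FPKM limit or below it.

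The third question was how the genotypes differed. In control seedlings, 967 of 4943 variants were higher in Pok than in IR29 (19.6%) and 404 lower (8.17%), against 15.5% and 8.74% of all assembled transcripts. After centring on the median annotated ratio, a log2 value of 0.33, the share of higher calls went from 70.5% to 51.3% of the called variants. In salt, 665 of 5431 were higher in Pok (12.2%) and 709 lower (13.1%), against 11.9% and 10.6% of all transcripts. Of the 2697 variants at 5 FPKM or more everywhere, the numbers were 249 higher and 86 lower in control, and 144 and 106 in salt.

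Relative to the annotated form, 285 of 2321 variants were higher in Pok in control (12.3%) and 364 lower (15.7%), with a background of 18.9% and 19.4% among annotated isoforms. In salt 245 of 2624 were relatively higher (9.34%) and 437 lower (16.7%), with a background of 18.2% in each direction. With both forms at 5 FPKM or more everywhere, 6.39% of the members were relatively higher and 10.7% lower in control and 3.56% and 8.95% in salt, against 8.75% in each direction and 9.91% and 11.4% of annotated isoforms. The median relative change was -0.09 in control and -0.18 in salt. The log2 ratios of variant and annotated form had a Pearson r of 0.06 across variants in control and 0.13 in salt, lower values than for salt treatment. Of the 1951 variants considered in both, 45 were relatively higher in Pok in control and in salt, which is 19.6% of the control calls and 32.8% of the salt calls, and 76 were lower in both (28.8% and 26.1%), while 59 had opposite calls. Among the 765 annotated isoforms considered in both, 37 were higher in both and 42 lower in both (30.1% to 33.6% of the calls), and 40 were opposite.

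A share of 50% or more in both libraries of a genotype and 10% or less in both of the other was found for 1 variant in Pok and 0 in IR29, among 4309, against 0.0518% and 0.121% of annotated transcripts. Under a wider limit chosen after the values were seen, a difference of 20 points or more in the same direction in control and in salt, the share was higher in IR29 for 60 variants (1.39%) and higher in Pok for 63 (1.46%), against 1.71% and 1.59% of annotated transcripts. Of these 60 and 63, 11 and 17 were listed at 0 in at least 1 library. The 1 variant under the strict limit came from the acyl CoA binding protein gene Os03g37960, whose product carries fatty acyl groups in the cell. Its variant TCONS_00028102 was listed at 0 in both IR29 libraries and had 21.5 and 9.23 FPKM in Pok control and salt, and its variant TCONS_00028103 had 5.40 and 3.08 FPKM in IR29 control and salt and was listed at 0 in both Pok libraries. The annotated transcript hardly differed between genotypes, at 8.03 and 4.78 FPKM in IR29 and 8.34 and 4.49 FPKM in Pok. Each genotype thus had its own listed variant beside a common annotated form.

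Further variants differed between the genotypes in both treatments. In the otubain-like ubiquitin thioesterase gene Os08g42540 (TCONS_00066381), which removes ubiquitin from proteins, the variant had 4.38 and 3.41 FPKM in IR29 and 24.7 and 28.1 FPKM in Pok, control before salt. The annotated transcript was the reverse, at 19.5 and 23.4 FPKM in IR29 and 3.58 and 3.97 FPKM in Pok, so the share was 13.7% and 8.22% in IR29 and 63.6% and 56.3% in Pok. This gene changed its main form between genotypes and hardly with salt. The variant of Os12g35580 (TCONS_00085591), the alpha chain of riboflavin synthase, held 14.1% and 6.15% in IR29 and 94.2% and 100% in Pok, with 1.50, 0.957, 8.64 and 12.6 FPKM in IR29 control, IR29 salt, Pok control and Pok salt. For EMB1303 (Os02g05890, TCONS_00016238) the variant had 2.10 and 2.70 FPKM in IR29 and 26.0 and 15.9 FPKM in Pok.

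In other genes the share was higher in IR29. The universal stress protein domain gene Os12g36640 (TCONS_00088612; MSU v6.1, chromosome 12, assembled locus 22394526 to 22398290) had nearly the same variant level in the genotypes, at 59.2 and 111 FPKM in IR29 and 58.9 and 105 FPKM in Pok, control before salt. It was the annotated transcript that differed, at 14.9 and 11.2 FPKM in IR29 and 85.9 and 144 FPKM in Pok. The share of the variant was therefore 79.9% and 87.9% in IR29 and 38.8% and 36.5% in Pok. In L-ascorbate oxidase (Os06g37150, TCONS_00048389), which oxidises ascorbate in the cell wall space, the variant had 12.4, 14.7, 12.6 and 2.90 FPKM and the annotated transcript 0.165, 0.309, 9.75 and 33.8 FPKM in IR29 control, IR29 salt, Pok control and Pok salt. The annotated form was thus nearly missing from IR29, where the variant held 98.7% and 97.9%, and in Pok the variant held 56.4% and 7.92%.

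**Figure D5:**
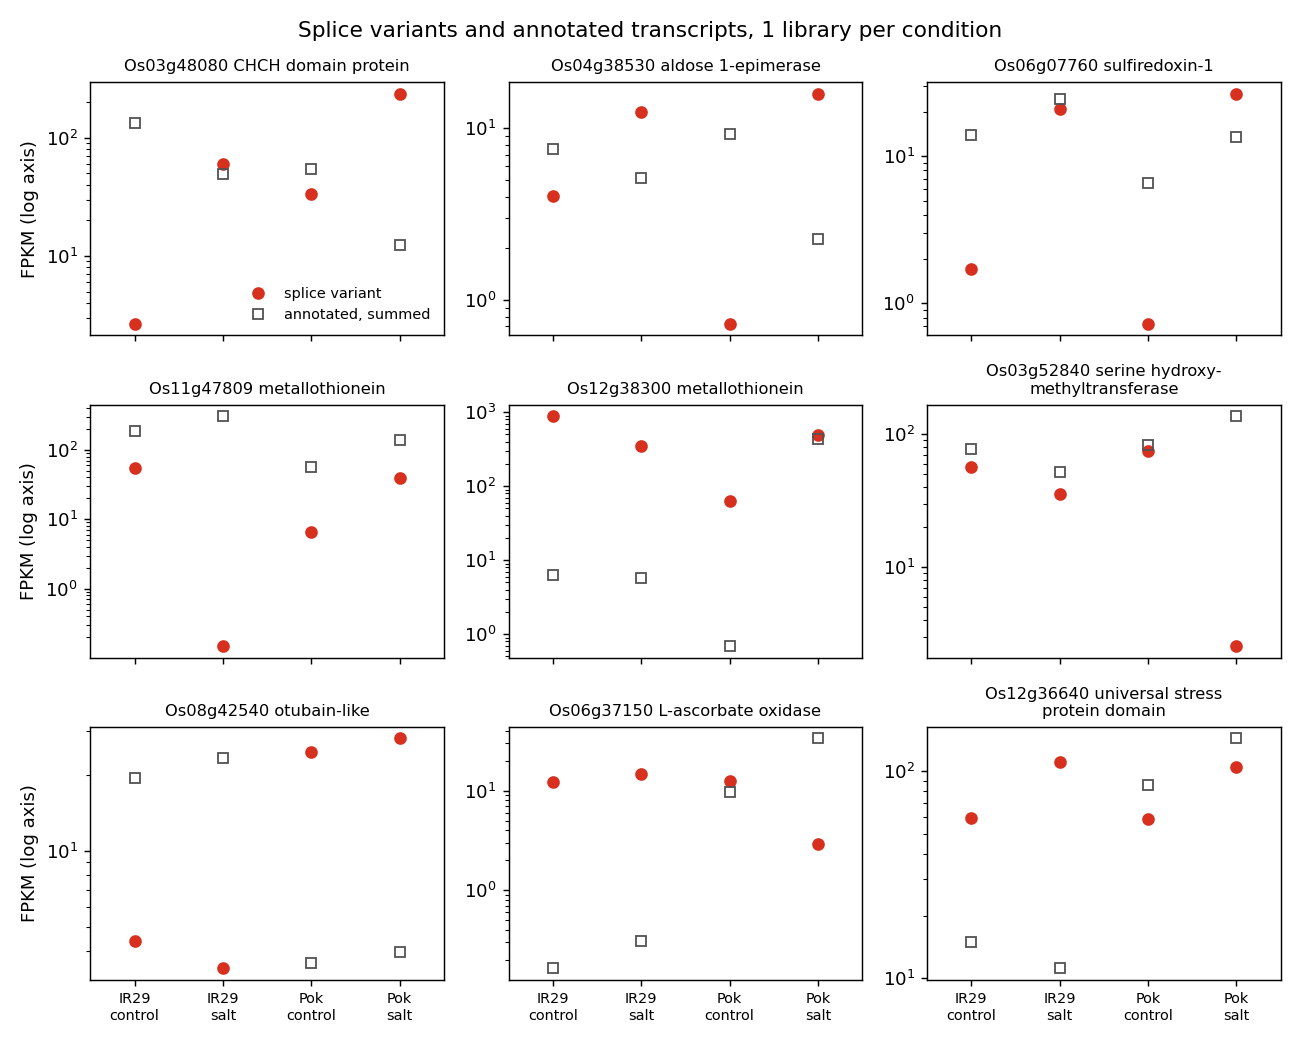
FPKM (log axis, a separate scale for each gene) of a splice variant (filled circles) and of the summed annotated transcripts of its gene (open squares) in IR29 control, IR29 salt, Pok control and Pok salt, for 9 genes with 1 library per condition. In Os03g48080 the variant is below the annotated form in both controls and above it in both salt libraries, and in Os08g42540 they change places between the genotypes.

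Other variants differed in the IR29 control library alone. The tubulin/FtsZ domain gene Os11g14220 (TCONS_00078228), of the proteins that build microtubules, had a variant at 74.3, 2.95, 2.31 and 3.70 FPKM in IR29 control, IR29 salt, Pok control and Pok salt, while the annotated transcript had 115, 85.2, 334 and 121 FPKM. In the DRD1 gene Os06g14440 (TCONS_00047082) the variant had 7.70, 0, 0.388 and 1.73 FPKM and the annotated transcripts 0.294, 15.6, 8.66 and 8.21 FPKM. In both genes the comparisons of salt in IR29 and of genotype in control use the same IR29 control library. In salt, the variant of ferredoxin-NADP reductase (Os03g57120, TCONS_00029499), the enzyme that passes electrons from photosystem I to NADP, had 5.26, 0.856, 6.84 and 13.3 FPKM, and its annotated transcripts 11.1, 15.2, 4.32 and 2.19 FPKM. Its share was 5.33% in IR29 salt and 85.9% in Pok salt.

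Variants of the same gene could also be compared with each other. Members of the same gene formed pairs in 1101 genes, and in 29.3% of 1258 pairs considered after salt in IR29 and 25.2% of 1325 in Pok the 2 variants differed by 2-fold or more in their log2 ratio of FPKM plus 1. Between genotypes it was 31.1% of 1158 pairs in control and 27.6% of 1316 in salt, and in 37 to 43 pairs per comparison the 2 variants changed 2-fold in opposite directions. Most pairs thus stayed within 2-fold of each other, and the percentages apart were close to those of relative calls over all variants, at 25.4% and 23.4% for salt and 28.0% and 26.0% between genotypes. The gene Os01g17170, which encodes the magnesium-protoporphyrin IX monomethyl ester cyclase of chlorophyll synthesis, was among the pairs that differed. Its variant TCONS_00001285 had 241, 64.0, 17.5 and 35.9 FPKM and its variant TCONS_00001282 had 2.18, 20.7, 105 and 62.4 FPKM in IR29 control, IR29 salt, Pok control and Pok salt. The first was highest where the second was lowest, and the reverse, while the annotated transcripts had 155, 94.0, 185 and 148 FPKM. In the acyl CoA binding protein gene described above the 2 variants were likewise listed above 0 in different genotypes.

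A group of 8 members is also in a table of splice variants given by the study. That choice used total RNA libraries of the study as well as the polysomal ones used here, so these variants are described only. The dehydrin variant of Os11g26790 (TCONS_00081900), a protective protein of water-stressed tissue, was listed at 0 in the IR29 control library and had 9.02 FPKM after salt, with 0.525 and 121 FPKM in Pok control and salt. The annotated dehydrin transcript had 3.73, 89.3, 6.31 and 467 FPKM, and the variant held 9.18% of the gene in IR29 salt and 20.6% in Pok salt. Variant and annotated form thus had the same order over the libraries, with Pok salt highest. The relative change after salt in Pok was 0.32.

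A beta-expansin gene (Os09g29710), of the proteins that loosen cell walls, had 2 of these variants. TCONS_00068596 had 70.5, 449, 32.5 and 42.8 FPKM and TCONS_00068597 had 19.3, 226, 18.0 and 45.2 FPKM, with 20.8, 118, 19.1 and 23.3 FPKM for the annotated transcript. All 3 forms were highest in IR29 salt, and the relative change after salt was 0.20 and 0.12 in IR29 and Pok for the first variant and 1.03 and 1.01 for the second. The wound-induced protein gene WIP5 (Os11g37970, TCONS_00079570) had a variant at 44.9, 144, 23.8 and 75.6 FPKM, higher after salt in both genotypes as was its annotated transcript (37.3, 297, 34.8 and 85.4 FPKM). The study, which used a test, reports this variant as upregulated in total RNA of both genotypes and not in polysomal RNA. The values given here are by size only. The variant of Os12g08700 (TCONS_00086888), an expressed protein of unknown function, had 0.107, 16.1, 0.275 and 12 FPKM, also with its annotated transcript (0.146, 8.47, 0.399 and 7.62 FPKM). The lipid transfer type protein Os11g02400 (LTPL8, TCONS_00077422) hardly varied, at 19.6, 22.6, 23.2 and 31.9 FPKM. The variant of Os01g50450 (TCONS_00003488), an expressed protein without an annotated transcript here, had 18.6, 45.2, 26.1 and 86.7 FPKM, and that of the photosystem II 10 kDa polypeptide (Os07g05360, TCONS_00053860) had 73.4, 75.4, 112 and 50.2 FPKM. The annotated transcripts of Os07g05360 summed to 15.6, 74.3, 173 and 63.0 FPKM. The relative change of its variant after salt was -2.14 in IR29 and 0.30 in Pok.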

How the data were processed

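Polysomal poly(A) RNA of 4 seedling groups was sequenced as single-end short reads. The authors removed reads with many low-quality bases, mapped the rest on the MSU v6.1 genome using TopHat, assembled and merged transcripts with Cufflinks and Cuffmerge, classed them with Cuffcompare and estimated levels with Cuffdiff, whose versions are not given in the sources used here. Equal RNA of biological replicates was pooled, as stated for total RNA and taken to hold for polysomal RNA. The values used are the FPKM per assembled transcript that the authors deposited, without counts, so depth and counting error are unknown. Cufflinks divides reads among the isoforms of a gene, so the levels of isoforms depend on each other, and short reads that cross no differing junction do not tell them apart. A value of 0 can be a failed estimate. Columns of per-sample values that could not be placed numbered 0.

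Genes were matched by locus name without the transcript number. Log2 ratios used a pseudocount of 1, and 5 FPKM and 2-fold are size limits that the study used with a test. Locus starts were read as 0-based, and an assembled locus can span several genes. The rule for named variants took the 5 largest relative changes in each direction and comparison and the 10 highest means, both with specific annotations. It also took the 5 largest share changes in each direction after salt in both genotypes, whatever the annotation. Up to 3 per gene list by mean level, variants with a strict genotype difference in share and the study's own list completed it. The 5 largest genotype differences in share in each direction were added after the values were seen. The members and lists were chosen with earlier results of these data known. The calls by level and by relative change were run on simulated data first, for the salt comparisons of IR29 and Pok only. The share formula was checked on a made-up row, and the other steps were not simulated. The software was Python 3.11.15, pandas 2.3.3, NumPy 2.4.6 and matplotlib 3.10.9. Alternatives were another pseudocount, a minimum of 10 FPKM, values in all 4 libraries, zeros kept or left out, the highest annotated transcript only, median centring, other gene sums and single-gene loci.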

Additional observations from a re-analysis of the deposited data

Results flagged for a closer look

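For 5 named variants the relative change after salt was called in opposite directions in IR29 and Pok. Each direction rests on 1 library pair, and the difference between genotypes was not tested. Opposite calls were found for 56 of the 1998 variants considered in both genotypes, against 33 of 778 annotated isoforms. The metallothionein variant of Os11g47809 (TCONS_00080256) had -6.32 in IR29 and 1.11 in Pok (log2), because the single low value was in IR29 salt. The CBS domain variant of Os09g02710 (TCONS_00069457) had 1.80 and -4.49, with the low value in Pok salt. The peptidase T1 variant of Os02g53060 (TCONS_00019757) had 3.31 and -2.54, and there the annotated sum was low in IR29 salt. The ubiquitin-conjugating enzyme variant of Os01g46926 (TCONS_00008547) had 4.25 and -1.05, with the low value in IR29 control. The chlorophyll synthesis variant of Os01g17170 (TCONS_00001285) had -1.18 and 1.32, from the highest value in IR29 control and the lowest in Pok control.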

How the results depend on the processing

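With 1 library per condition no spread or depth per value can be given, and a library left out ends its comparison. No paired analysis was possible because the groups share fewer than 2 replicate numbers, with 1 library each. A fit with the genotypes as blocks, which leaves 1 residual degree of freedom, was not run. A minimum of 10 FPKM for variant and annotated sum gave 140 relatively higher and 169 lower variants after salt in IR29, 114 and 157 in Pok, 134 and 192 for Pok over IR29 in control and 102 and 199 in salt. With both forms at 5 FPKM or more in every library these were 78 and 104, 52 and 86, 70 and 117, and 39 and 98. By level, 5 FPKM or more in all 4 libraries gave 315 higher and 171 lower after salt in IR29, 154 and 132 in Pok, 249 and 86 for Pok over IR29 in control, and 144 and 106 in salt. These settings consider fewer variants. Centring on the median annotated ratio gave 613 variants higher in Pok control than in IR29 control, in place of 967. The median share in IR29 control, IR29 salt, Pok control and Pok salt was 35.5%, 36.7%, 36.5% and 34.6% with all classes in the gene sum, and 34.9%, 36.5%, 36.3% and 34.4% with a gene sum of 10 FPKM. The strict genotype difference in share was found for 0 variants with a gene sum of 10 FPKM and for 0 without variants listed at 0, and the wider limit, chosen after seeing the data, gave 123. Share changes after salt in both genotypes were 30 in place of 65 with a gene sum of 10 FPKM. The other alternatives moved no count by over 1.5 times, including the pseudocount of 0.1, the highest annotated transcript only and, chosen after seeing the data, assembled genes with 1 annotated gene, and the 80 recomputed values of single variants kept their direction and call.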
